A study of Homo sapiens with 8 samples.

Results

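The ZNF genes are the human zinc finger genes whose symbol is ZNF followed by a number. They were found through the RefSeq accession that the array gives for each probe, among the 14453 probes of the authors' table of consistently expressed probes. This gave 257 probes for 214 ZNF genes, of 7930 named genes in that table. The array carries 567 ZNF probes for 399 genes among its 41000 probes, so that 45.3% of the ZNF probes and 35.3% of all probes were in the table. Of the 310 ZNF probes outside it, 197 were detected in fewer than 4 channels and 113 in at least 4 channels, and 139 ZNF probes of the array were detected in no channel.

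ST486 is a cell line from Burkitt lymphoma, a germinal centre B-cell lymphoma with little miR-155. The cells carried a retroviral vector, MXW-PGK-IRES-GFP, either empty (EV-ST486, or EV cells) or with the miR-155 precursor (miR-155-ST486, or miR-155 cells), and transduced GFP+ cells were sorted, so that both groups share the vector and the GFP. Complexes of Argonaute 2 (Ago2), which binds miRNAs and the RNAs they pair with, were immunoprecipitated, and RNA of this IP fraction and of the total (T) fraction was measured on 2-colour Agilent arrays (Ago2-RIP-Chip). Each of the 4 conditions (EV total, EV IP, miR-155 total, miR-155 IP) is 1 RNA sample, labelled once with Cy3 and once with Cy5, and each of the 4 arrays held the IP and the total RNA of the same cells. The IP/T ratio is the normalized IP signal over the normalized total signal, as the mean of the log2 values of the labellings. A ratio is also given for the array with total RNA in Cy3 and for the array with IP RNA in Cy3, in this order. Where 2 ratios of a gene stand side by side, the first is with EV and the second with miR-155. The pair of arrays shows the spread between labellings of the same RNA and not between cultures, so no test between conditions was possible and no p-value is given.

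Most ZNF genes encode C2H2 zinc finger proteins, in which tandem fingers each fold around a zinc ion and read a stretch of DNA. Many also carry a KRAB domain, which recruits the corepressor TRIM28 and, through it, the histone methyltransferase SETDB1 to silence chromatin, often at transposable elements. The family grew by repeated duplication of neighbouring genes, and its members lie in runs of close relatives. miRNAs guide Ago2 to RNAs that pair with their seed, and RNAs held in this way are enriched in the Ago2-IP fraction.

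The miRNA added is shown with its seed (bases 2 to 8) in capitals, since pairing with the seed is what the comparison of vectors addresses (RefSeq, GRCh38.p14, chr21:25573983-25574006, plus strand).
hsa-miR-155-5p: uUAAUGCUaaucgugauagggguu
The site searched for in the study is AGCATTAA in its long form and GCATTA in its short form, both read on the messenger RNA strand. Transcript sequences were not used here, so it was not determined which ZNF transcripts hold it.

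With the study's normalization, ZNF transcripts reached high IP/T ratios more often than transcripts in general. In EV-ST486 cells, 77 of the 257 ZNF probes (30.0%) reached an IP/T ratio of 2, beside 12.5% of all probes. In miR-155-ST486 cells, 74 ZNF probes (28.8%) reached this ratio, beside 12.6% of all probes. The median IP/T ratio of the ZNF probes was 1.31 with EV (1.43 and 1.25 in the separate arrays), and that of all probes was 0.900. In miR-155-ST486 cells the medians were 1.35 (1.41 and 1.25) for ZNF probes and 0.887 for all probes. Ratios above 1 were also more common, since 169 ZNF probes (65.8%) were above 1 with EV, beside 41.9% of all probes.

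The same held higher up. An IP/T ratio of 4 or more was found for 31 ZNF probes (12.1%) with EV, beside 4.58% of all probes, and for 34 (13.2%) with miR-155, beside 4.86%. A ratio of 8 or more was found for 13 ZNF probes (5.06%) with EV, beside 1.65% of all probes, and for 12 (4.67%) with miR-155, beside 1.57%. At the other end, ratios of 0.5 or less were less common among ZNF probes, with 8 (3.11%) with EV, beside 9.91% of all probes, and 9 (3.50%) with miR-155, beside 9.82%. Taken singly, the labelling with total RNA by Cy3 gave counts of 17 (6.61%) and 16 (6.23%), beside 14.3% and 13.03%, and the labelling with IP RNA by Cy3 gave 11 (4.28%) and 7 (2.72%), beside 9.56% and 9.04%. The ZNF ratios were thus the higher ones at both ends of the distribution.

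**Figure D1:**
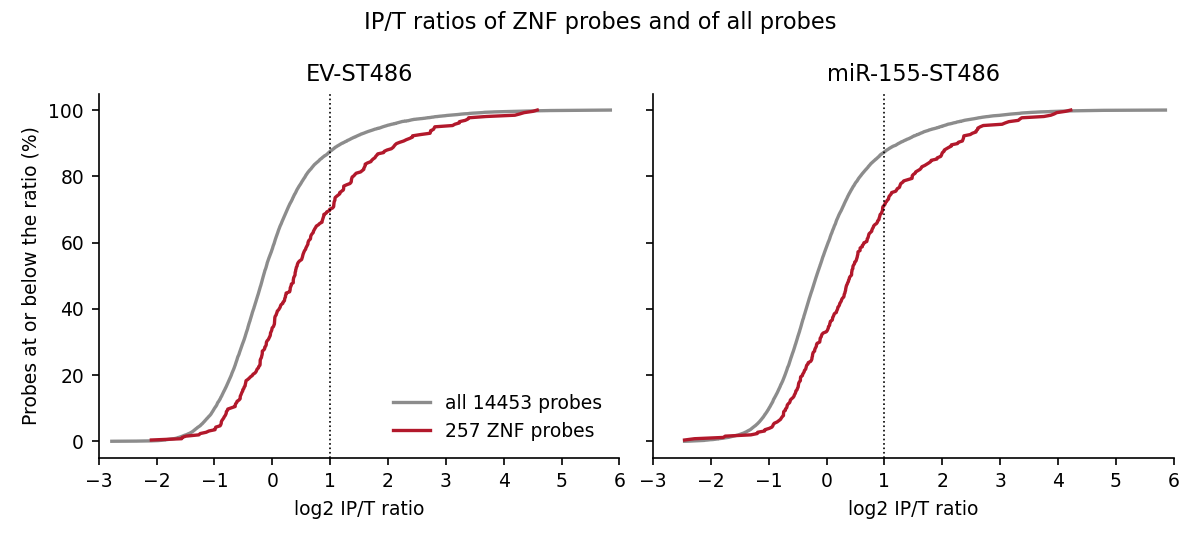
Share of probes (%, vertical axis) at or below each log2 IP/T ratio (horizontal axis) for the 257 ZNF probes and all 14453 probes, with EV (left) and with miR-155 (right); the dotted line marks a ratio of 2. The ZNF line runs to the right of the line of all probes over most of its length, with 30.0% and 28.8% of ZNF probes at or beyond the dotted line beside 12.5% and 12.6% of all probes.

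This excess depended on the background correction. With normexp correction (offset 50) followed by quantile normalization, 8 ZNF probes (3.11%) and 3.02% of all probes reached an IP/T of 2 with EV, and 8 (3.11%) and 3.26% with miR-155. The scanner files hold 19 spots with a local background over 500, and with these set to the channel's median the shares were 16.3% of ZNF probes and 7.44% of all probes with EV, and 16.3% and 7.59% with miR-155.

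ZNF probes had lower array signals, with a median over the 8 channels of 508 beside 953 for all probes, and the part of this in the ratios was looked at by class of signal. Within each of 4 equal classes of signal, from the dimmest to the brightest, the share of ZNF probes with an IP/T ratio of 2 or more with EV was 26.0%, 27.8%, 41.3% and 21.1%. The shares of all probes in the same classes were 12.8%, 12.04%, 14.1% and 10.9%, so that the ZNF share was the higher one in each class. Only 19 ZNF probes fell into the brightest class. In miR-155-ST486 cells the ZNF shares were 23.96%, 26.6%, 39.7% and 26.3%, beside 12.4%, 11.9%, 13.9% and 12.4% of all probes. Signal well above background in every channel was found for 199 ZNF probes (77.4%), beside 83.5% of all probes, and no ZNF probe was saturated.

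The vectors gave nearly the same ranking of ZNF transcripts, as they did of all probes. IP/T ratios of 2 or more in both vectors were found for 66 ZNF probes (25.7%) of 62 genes, beside 10.7% of all probes, and 46 of these 66 were detected in 8 channels. A further 11 ZNF probes (4.28%) reached the ratio with EV alone, beside 1.75% of all probes, and 8 (3.11%) with miR-155 alone, beside 1.93%. Of the 66 probes, 7 and 5 were at or above 2 in both vectors with plain normexp (quantile or loess). With high local backgrounds replaced, 38 and 37 were. All 66 were above 1 in both vectors in each of these 4 settings. They were chosen for high ratios on the same scans, and all probes chosen alike were not counted. No support is therefore drawn from their staying above 1. In each of the 4 arrays taken singly, 58 ZNF probes (22.6%) were at or above 2, beside 8.66% of all probes. The log2 IP/T ratios of the ZNF probes correlated between the vectors with r = 0.957 and rho = 0.941 over 257 probes, which share arrays and dyes and are not replicates. Over all probes these values were r = 0.941 and rho = 0.911. Between the array with total RNA in Cy3 and the array with IP RNA in Cy3 the correlation was r = 0.882 with EV and r = 0.947 with miR-155. The same correlations over all probes were r = 0.827 and r = 0.917.

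**Figure D2:**
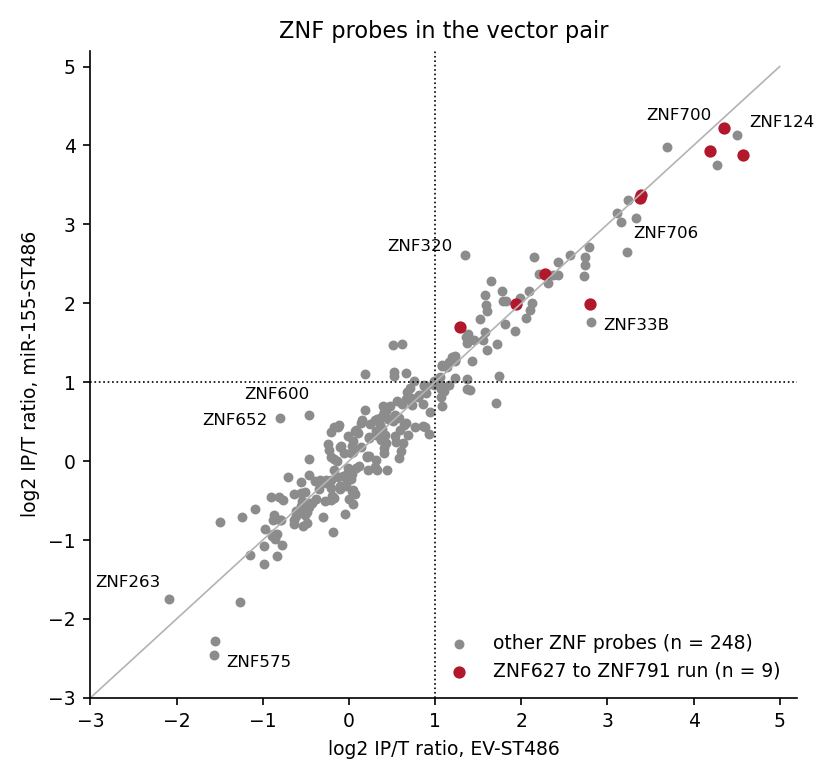
Log2 IP/T ratio of each of the 257 ZNF probes with EV (horizontal axis) against those with miR-155 (vertical axis); the grey line marks equal ratios and the dotted lines a ratio of 2. Points lie along the line of equal ratios (r = 0.957), the 9 red probes of the ZNF627 to ZNF791 run lie in the upper right, and ZNF320, ZNF652, ZNF600 (a second probe) and ZNF33B lie off the line.

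Of the 12 ZNF probes with IP/T ratios of 8 or more in both vectors, 5 came from a single run of neighbouring genes. Probes past 8 in both vectors were not counted over all probes. By vector, such ratios were found for 5.06% and 4.67% of ZNF probes, beside 1.65% and 1.57% of all probes. When ZNF genes were joined into runs wherever at most 2 other protein-coding genes lay between them in the RefSeq gene order (GRCh38.p14), 10 runs held at least 5 measured ZNF genes, 88 in all. In the run from ZNF627 to ZNF791 all 9 measured genes (ZNF627, ZNF823, ZNF439, ZNF700, ZNF20, ZNF625, ZNF136, ZNF442 and ZNF564) had IP/T ratios of 2 or more in both vectors and in all 4 arrays. Their median ratio was 10.4 with EV (range 2.43 to 23.9) and 10.1 with miR-155 (3.24 to 18.6), and in the separate arrays the medians were 9.89, 9.99, 9.52 and 7.43. Of its 9 probes in the table, 4 were detected in all 8 channels, as were 77.4% of all ZNF probes. The probes of ZNF627, ZNF823, ZNF20, ZNF442 and ZNF564 were detected in 7. The run was picked out for its ratios and is therefore a description.

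ZNF700 had total signals of 511 (Cy3) and 665 (Cy5) and IP signals of 10543 and 13450 with EV. In miR-155-ST486 cells its total signals were 514 and 672 and its IP signals 10755 and 11151. Every IP labelling was thus far above every total labelling, and the IP/T ratios were 20.4 (26.3 and 15.9) with EV and 18.6 (21.7 and 16.0) with miR-155. ZNF439, also of the run, had total signals of 578 and 489 and IP signals of 9443 and 10021 with EV. In miR-155-ST486 cells these were 535 and 606 for total RNA and 9147 and 8284 for the IP fraction. Its IP/T ratios were 18.3 (17.3 and 19.3) and 15.3 (15.5 and 15.1), with no overlap between fractions.

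ZNF823 had the highest IP/T ratio of all ZNF probes with EV, 23.9 (24.5 and 23.3), and a lower one of 14.7 (15.5 and 13.9) with miR-155. Its total signals ran from 106 to 160 over the 4 labellings, and its IP signals from 2237 to 3375. The probe was detected in 7 of 8 channels. ZNF136 had ratios of 10.51 (9.89 and 11.2) and 10.4 (9.52 and 11.3), nearly alike in all 4 arrays. ZNF442 had ratios of 10.4 (15.8 and 6.88) and 10.1 (13.8 and 7.43), which differed more between the arrays of a vector than between the vectors. The remaining 4 genes of the run were lower. ZNF20 had ratios of 6.95 and 3.96, ZNF564 of 4.83 and 5.16, ZNF625 of 3.83 and 3.98 and ZNF627 of 2.43 and 3.24 with EV and miR-155.

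The run holds 27 ZNF genes, of which 19 have a probe on the array. Of its probes outside the table, 10 were detected in fewer than 4 channels and 8 in at least 4 channels. These 8 differed over 2-fold between labellings of a sample, beyond the limit of the study's filter, and 5 of them had IP/T ratios of 2 or more in all 4 arrays. Second probes of ZNF700 (16.2 and 19.9) and ZNF136 (12.2 and 8.26) gave ratios close to those of the first with EV and miR-155. ZNF44, a gene of the run with no probe in the table, had ratios of 20.5 (11.1 and 37.9) and 8.91 (8.83 and 8.99). ZNF490 had ratios of 1.08 (0.351 and 3.31) and 1.28 (1.27 and 1.30), so that with EV its arrays lay on either side of 1. Genes of such a run are alike in sequence, and whether each probe reads only the gene it is named for was not tested.

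The other 9 runs stood much lower, with median IP/T ratios with EV from 0.723 in the run ZNF205 to ZNF597 to 1.86 in the run ZNF101 to ZNF254, which holds ZNF91. In the run ZNF101 to ZNF254, 7 of 16 genes with EV and 9 of 16 with miR-155 had ratios of 2 or more. In the run ZNF786 to ZNF862 none of 6 genes did, and its highest ratio was 1.32 with EV and 1.63 with miR-155. The 69 genes with no ZNF gene beside them had a median of 1.17 and the 57 genes of smaller runs one of 1.098. Without the run ZNF627 to ZNF791, the other 205 genes had a median of 1.31 in both vectors, beside 1.32 and 1.36 for all 214 genes, and 61 and 57 of them were at or above 2. Leaving out 9 of 214 genes can move a median only little, so no conclusion on the run's weight in the family is drawn from this.

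**Figure D3:**
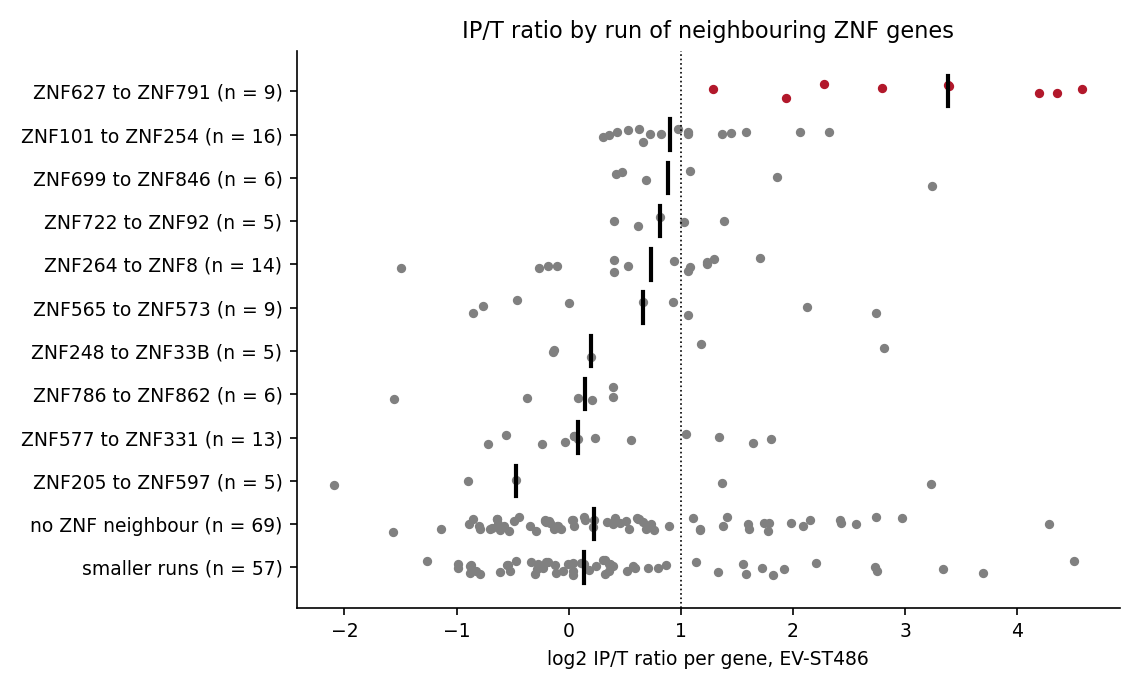
Log2 IP/T ratio with EV (horizontal axis) of each of the 214 ZNF genes, as the median over its probes, by run of neighbouring ZNF genes; bars are medians, n is the number of genes and the dotted line marks a ratio of 2. The 9 genes of the ZNF627 to ZNF791 run all lie to the right of the dotted line, and the medians of all other groups lie to its left.

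The run's median also stayed above that of the other ZNF genes when the background was corrected otherwise, at smaller ratios. With normexp and the high local backgrounds replaced, its median was 2.55 with EV and 2.67 with miR-155 after quantile normalization, beside 1.13 and 1.14 for the other ZNF genes, and 6 of 9 genes reached 2 in each vector. With plain normexp and quantile normalization the medians were 1.39 and 1.48, beside 1.05 and 1.05, and 3 and 2 of the 9 genes reached 2.

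Outside the run, 7 of the 12 ZNF probes with IP/T ratios of 8 or more in both vectors belonged to scattered genes. ZNF124 had ratios of 22.7 (27.5 and 18.7) and 17.5 (19.8 and 15.4), from total signals of 38 to 59 and IP signals of 902 to 1035. ZNF658, a zinc-responsive factor, had ratios of 19.4 (13.2 and 28.6) and 13.5 (11.6 and 15.8). The others were ZNF12 (8.67 and 8.87), ZNF121 (9.41 and 9.94), ZNF180 (10.1 and 8.50), ZNF706 and ZNF280A. ZNF280A, a gene within the immunoglobulin lambda locus, was not well above background in any total labelling, and its IP signal was at least 1.46-fold higher than its total signal with EV and at least 1.67-fold higher with miR-155. The measured ratios behind this count were 12.95 and 15.8. Among the other members, ZNF211 was not well above background in the IP fraction with EV, where its total signal was at least 1.11-fold higher. Of these 12, 5 were detected in 8 channels and 8 had ratios of 8 or more in all 4 arrays, counts not made over all probes.

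ZNF706 encodes a very small zinc finger protein without a KRAB domain and was among the ZNF transcripts with high ratios. Its first probe had total signals of 18856 (Cy3) and 18513 (Cy5) and IP signals of 171242 and 161775 with EV. In miR-155-ST486 cells the total signals were 16541 and 17126 and the IP signals 140693 and 135057. The ratios were 8.91 (8.58 and 9.25) and 8.19 (8.17 and 8.22), nearly alike in all 4 arrays. A second probe of ZNF706 gave 6.90 (7.14 and 6.66) and 6.53 (5.80 and 7.36). With plain normexp and quantile normalization the first probe still had a ratio of 11.5 with EV, while the second had 1.46.

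ZNF217, an oncogene of epithelial cancers that acts within CtBP and LSD1 corepressor complexes, had total signals of 981 and 958 and IP signals of 5935 and 7018 with EV. In miR-155-ST486 cells its total signals were 1320 and 1384 and its IP signals 7957 and 7178. The IP/T ratios were 6.66 (7.16 and 6.20) and 5.59 (5.44 and 5.75), all 4 arrays being well above 2. ZNF12 had 2 probes, which both showed enrichment, at 8.67 (5.999 and 12.5) and 5.19 (6.22 and 4.32) with EV. ZNF529 had ratios of 6.67 (10.55 and 4.22) and 6.01 (7.50 and 4.82), with more spread between the arrays of a vector than between vectors. With plain normexp and quantile normalization the ratios were 2.404 and 2.33 for ZNF217, 1.45 and 1.47 for ZNF529, and 2.36 and 1.498 with EV for the probes of ZNF12.

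The ZNF probes at the low end were fewer and closer to 1. IP/T ratios of 0.5 or less in both vectors were found for 5 probes, of ZNF263, ZNF467, ZNF512, ZNF575 and ZNF579. Of these, 4 were at or below 0.5 in all 4 arrays. Neither count was made over all probes. By vector, such ratios were found for 3.11% and 3.50% of ZNF probes, beside 9.91% and 9.82% of all probes. ZNF575 had total signals of 7378 and 4973 and IP signals of 2044 and 2048 with EV. In miR-155-ST486 cells the total signals were 4800 and 3521 and the IP signals 734 and 767. Its ratios were 0.338 (0.278 and 0.411) and 0.182 (0.160 and 0.208), the lowest of all 14453 probes with miR-155. ZNF467 had ratios of 0.340 (0.252 and 0.458) and 0.206 (0.194 and 0.218), and ZNF579 of 0.415 (0.355 and 0.486) and 0.291 (0.276 and 0.306). For these 3 probes both arrays with miR-155 lay below both arrays with EV, and the ratio of ratios was 0.540, 0.605 and 0.6995. For ZNF575 it was 1.03 with normexp and quantile normalization, where the IP/T ratios were 0.496 and 0.513, and 0.681 to 0.864 in the other 3 normexp settings. ZNF263 was detected in 6 channels and had ratios of 0.235 (0.214 and 0.258) and 0.297 (0.317 and 0.278). The other 5 of the 8 lowest probes detected in all channels, of ZNF607, ZNF544, ZNF589, ZNF600 and ZNF787, had ratios from 0.478 to 0.584 over the vectors.

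**Figure D4:**
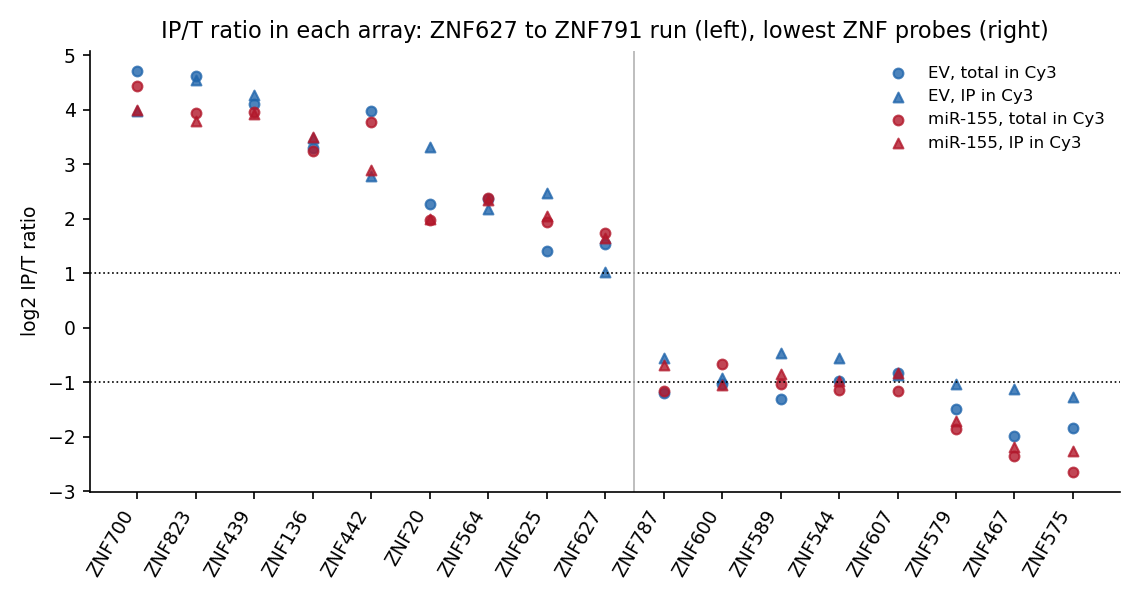
Log2 IP/T ratio (vertical axis) in each of the 4 arrays for the 9 probes of the ZNF627 to ZNF791 run (left of the grey line) and the 8 lowest ZNF probes detected in all channels (right); circles are arrays with total RNA in Cy3, triangles arrays with IP RNA in Cy3, blue EV and red miR-155, and dotted lines mark ratios of 2 and 0.5. All 4 arrays lie above a ratio of 2 for each of the 9 run probes, while the low probes lie nearer to 0.5 apart from ZNF579, ZNF467 and ZNF575.

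Probes of the same gene mostly gave like ratios. Of the 34 ZNF genes with several probes in the table, 4 had all probes at IP/T ratios of 2 or more in both vectors, 4 had some and 26 had none. Of the 27 genes with several probes detected in all 8 channels, 21 had probes within 1.5-fold of each other in mean IP/T ratio, and the median distance was 1.21-fold. The widest gap was 3.48-fold in ZNF544, whose probes gave 1.68 (1.49 and 1.90) and 0.584 (0.504 and 0.677) with EV, on either side of 1 in each array. A further probe of ZNF544, detected in 7 channels, gave 1.45 (1.501 and 1.39). ZNF600 (1.96-fold), ZNF493 (1.95-fold), ZNF562 (1.87-fold) and ZNF12 (1.70-fold) followed. In ZNF493 one probe had a ratio of 2.35 with EV and the other 2 detected in all channels 1.23 and 1.24. Whether the probes of a gene read different transcripts was not tested.

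To compare the vectors, each probe's IP/T ratio with miR-155 was divided by that with EV, which gives miR-155/EV. ZNF probes had a median miR-155/EV of 0.986 (1.01 and 0.971), beside 0.985 for all probes, and 236 of them (91.8%) lay within 1.5-fold of 1, beside 92.8% of all probes. A miR-155/EV value of 2 or more was found for 3 ZNF probes, of ZNF320, ZNF600 and ZNF652, beside 1.02% of all probes. A ratio of 0.5 or less was found for 1 ZNF probe, of ZNF33B, beside 0.221%. As a group, ZNF probes thus differed little from all probes in this measure. None of them reached 2 in each dye orientation. With an IP/T ratio of 2 or more with miR-155 also asked for in each orientation, 0.291% of all probes did so. Log2 miR-155/EV correlated between orientations with r = 0.296 over the 257 ZNF probes, beside r = 0.326 over all probes. For 115 of the 257 probes the orientations lay on different sides of 1, a count not made over all probes.

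The criteria of the study for a miR-155 target, an IP/T ratio of 2 or more with miR-155 and a miR-155/EV value of 2 or more, were met by 1 ZNF probe, of ZNF320, beside 0.436% of all probes. ZNF320 had total signals of 82.5 and 97.4 and IP signals of 209 and 248 with EV. In miR-155-ST486 cells the total signals were 47.3 and 61.9 and the IP signals 392 and 279. The IP signals with miR-155 were above and the total signals below all those with the empty vector. The IP/T ratios were 2.54 (3.005 and 2.14) and 6.11 (5.90 and 6.34), and miR-155/EV was 2.41 (1.96 and 2.96). ZNF320 did not meet the criteria in any of the 4 normexp settings, where its miR-155/EV value was 1.0987 to 1.52. With normexp, loess and Aquantile, ZNF439 (2.03) and ZNF700 (2.37) met them, beside 0.803% of all probes. In the other 3 settings no ZNF probe did.

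The study lists 4 ZNF genes for these cells, ZNF320, ZNF578, ZNF845 and ZNF137P, and all 4 lie in the same run of 42 ZNF genes, ZNF577 to ZNF331. They were chosen on these same arrays, so their values are given as a description, with names of the last 3 probes from the study's list since the array's accession gave them no ZNF symbol. ZNF845 had IP/T ratios of 2.12 (2.29 and 1.97) with EV and 6.26 (7.59 and 5.16) with miR-155 and a miR-155/EV value of 2.95 (3.31 and 2.62). Its IP signals were 1258 and 1549 with the empty vector and 3923 and 4029 with miR-155, and its total signals were 675 and 640 with the empty vector and 531 and 761 with miR-155. ZNF578 had a miR-155/EV value of 3.26 (3.87 and 2.74), but was detected in 1 of 2 labellings of the EV total and of the EV IP fraction. ZNF137P, a pseudogene, had a ratio of 2.06 (2.11 and 2.01). The 13 measured ZNF genes of the run had a median miR-155/EV of 1.16 (range 0.755 to 2.41), beside 0.988 for all 214 ZNF genes. The run is named here for the listed genes, and ZNF320, with the highest value, is among the 13. This median is therefore a description, and a response of the run to miR-155 was not tested.

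**Figure D5:**
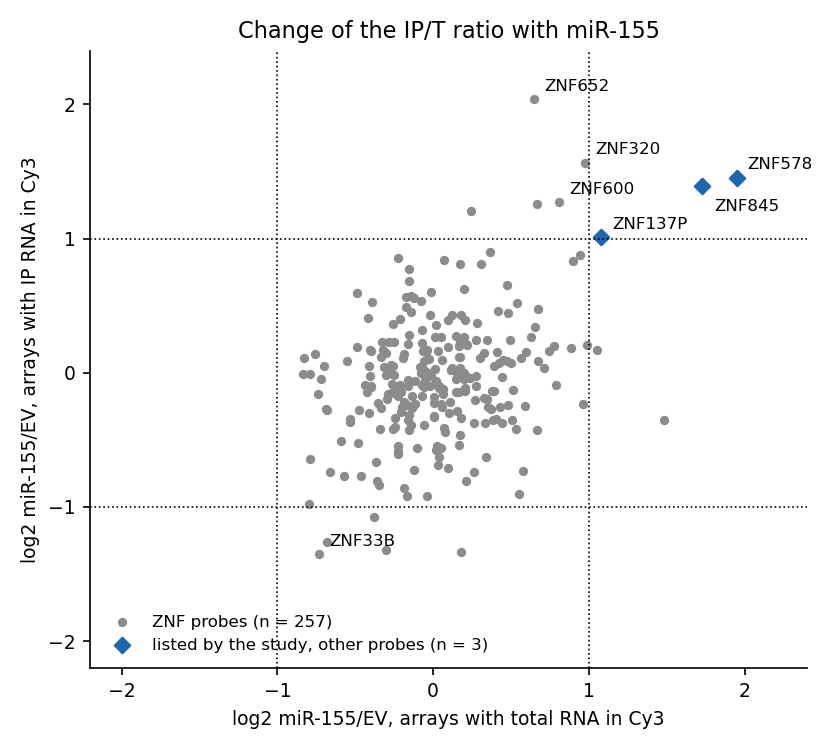
Log2 miR-155/EV with total RNA labelled by Cy3 (horizontal axis) against the same with IP RNA labelled by Cy3 (vertical axis) for the 257 ZNF probes (grey) and 3 further probes that the study lists for ZNF genes (blue diamonds); dotted lines mark ratios of 2 and 0.5. Most ZNF probes form a round cloud near 0 (r = 0.296, beside 0.326 over all probes), and no grey point lies past a ratio of 2 on both axes.

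ZNF33B, a KRAB zinc finger gene, met the mirror-image criteria, an IP/T ratio of 2 or more with EV and a miR-155/EV value of 0.5 or less, beside 0.125% of all probes. Its total signals were 31.0 and 24.9 with the empty vector and 42.3 and 52.0 with miR-155, and its IP signals 208 and 182 against 170 and 150. The IP/T ratios were 7.01 (5.89 and 8.35) and 3.40 (3.54 and 3.28), and miR-155/EV was 0.485 (0.601 and 0.392). The probe was detected in 6 of 8 channels, and with normexp and quantile normalization its ratios were 1.11 and 1.11.

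Total RNA of ZNF genes was much alike with both vectors, with a median log2 change of 0.03 beside 0.01 for all probes. A total signal at least 2-fold higher with miR-155 was found for 0 ZNF probes, beside 0.567% of all probes, and one at least 2-fold lower for 1, beside 0.332%. In such samples fewer cells with a transcript and less of it per cell cannot be told apart. That probe was of ZNF652, a repressor that binds the corepressor CBFA2T3. Its total signals were 342 and 433 with EV and 137 and 99.4 with miR-155, with no overlap, a difference of -1.72 on the log2 scale. In the 4 normexp settings the total signal with miR-155 was 0.584 to 0.865 of that with EV, so that the 2-fold difference was not reached. Its IP signals were 163 and 298 against 154 and 188, so that the IP/T ratio was 0.573 (0.873 and 0.377) with the empty vector and 1.46 (1.37 and 1.55) with miR-155.

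ZNF91, a KRAB zinc finger protein that silences SVA transposons, had total signals of 323 and 530 with EV and 196 and 222 with miR-155, a linear ratio of 0.504, which was 0.727 to 0.920 in the 4 normexp settings. Its IP signals were 632 and 679 against 473 and 433, and its IP/T ratios 1.58 (2.10 and 1.19) and 2.17 (2.21 and 2.13). Among ZNF probes detected in all 8 channels, the highest ratios of total RNA with miR-155 over EV were those of ZNF526 (1.51), ZNF143 (1.504) and ZNF200 (1.47), which with normexp, loess and Aquantile were 0.958, 1.04 and 1.001. In ZNF143, a factor that binds promoters and chromatin loop anchors, a second probe gave 1.21. ZNF526 was enriched in the IP fraction of both vectors, with ratios of 3.79 (3.14 and 4.59) and 3.13 (3.18 and 3.09), and ZNF200 had ratios of 2.58 (2.48 and 2.69) and 2.05 (2.30 and 1.82). ZNF22, with total signals of 9501 and 11436 with EV, stayed near an IP/T ratio of 1, at 1.01 (1.29 and 0.797) and 1.07 (1.23 and 0.930).

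With the study's normalization, transcripts of the proteins that KRAB zinc fingers recruit seldom reached an IP/T ratio of 2. Of a list of 32 corepressor genes, 29 were measured, with 45 probes. Only 1 of these probes, of UHRF1, had an IP/T ratio of 2 or more with EV and 0 with miR-155, beside 12.5% and 12.6% of all probes. Its ratios were 2.12 (2.63 and 1.71) and 1.56 (1.64 and 1.49), and a second probe of UHRF1 gave 1.28 and 1.14. The counts of this list were not remade with normexp. Ratios of 0.5 or less were found for 7 (15.6%) with EV and 0 with miR-155, beside 9.91% and 9.82%, and the 7 were 10 in the array with total RNA in Cy3 and 1 in the array with IP RNA in Cy3. The median ratio was 0.999 with EV and 0.951 with miR-155, between those of all probes (0.900 and 0.887) and of ZNF probes (1.31 and 1.35). TRIM28 had ratios of 0.780 (0.660 and 0.921) and 0.857 (0.743 and 0.988), and SETDB1 of 0.991 (0.839 and 1.17) and 1.41 (1.45 and 1.37). Genes with a ZFP, ZSCAN, ZKSCAN or ZBTB symbol, grouped by symbol alone, lay between. Of their 49 probes, 8 (16.3%) were at or above 2 with EV and 11 (22.4%) with miR-155, with medians of 1.15 and 1.13. Among these probes at or above 2 were ZFP36 (7.61 and 19.4), ZFP36L2 (7.36 and 7.66) and a probe of ZFP36L1 (6.37 and 6.32). These are not C2H2 genes. Another probe of ZFP36L1 gave 0.856 and 0.863. Shares and medians without such genes were not determined. Of a list of 9 B-cell marker genes, 6 were in the table, among them MS4A1, CD79A and CD79B, each detected in all 8 channels, and of 6 T-cell and myeloid markers 0.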

How the data were processed

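RNA of the total and Ago2-IP fractions of ST486 cells with either vector was measured on 4 two-colour Agilent arrays. The deposited intensity values are the processed red and green signals that the authors extracted with Agilent Feature Extraction 10.5.1.1 after subtraction of background and normalization of the dyes. The deposited log2 values were made by the authors in GeneSpring by quantile normalization of the 8 channels after which undetected probes and probes with unlike labellings were dropped. They are used here to define the table of 14453 probes, and 99.9% of them lay within 0.05 of the values made here.

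From each array's file the channel of the sample's dye was taken. Control spots were left out, spots of a probe averaged, signals under 1 set to 1 and log2 values quantile-normalized over 8 channels (Python 3.11.15, numpy 2.4.6, pandas 2.3.3). Probes were named through RefSeq accessions (assembly GRCh38.p14), which named 10412 of the 14453. The array header names an older genome build, so no gene coordinates are given. Each vector has a slide of its own, so slide and vector cannot be told apart. The number of arrays and of RNA samples limits the precision. The processing was tested on simulated data. Alternatives used limma 3.58.1 (R 4.3.3). Where a fraction was not detected in any labelling, the stated bound uses its own signal or, if higher, the lowest signal among detected probes on each array, on normexp and loess values.

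The ZNF genes, gene lists and comparisons were chosen with earlier results of these data known. Named are ZNF probes past either pair of thresholds, the 8 highest and 8 lowest in mean log2 IP/T ratio, the 3 largest rises, falls and signals of total RNA (all detected in 8 channels), the 5 genes whose probes differ most, and ZNF genes the study lists. Genes outside this rule (ZNF124, ZNF658, ZNF121, ZNF180, ZNF280A, ZNF211, ZNF263, ZNF512, ZNF44, ZNF490 and the run ZNF627 to ZNF791) were chosen after their values were seen. Planned splits by protein features and by miR-155 sites were not made.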

Additional observations from a re-analysis of the deposited data

Results flagged for a closer look

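For 3 named ZNF probes, both arrays of one vector lay on the other side of an IP/T ratio of 1 than both arrays of the other vector. The difference was not tested in any of them, since each condition is 1 RNA sample. Only named probes were searched, and the share over all ZNF probes or all probes was not counted. ZNF652 and ZNF143 were named for their change of total RNA, which is part of the IP/T ratio. The second probe of ZNF600 had IP/T ratios of 0.726 (0.734 and 0.719) with EV and 1.49 (1.29 and 1.73) with miR-155, and a miR-155/EV value of 2.06, which was 1.103 to 1.54 in the 4 normexp settings. The first probe of ZNF600 gave 0.509 (0.488 and 0.530) and 0.553 (0.633 and 0.483), below 1 in all 4 arrays. ZNF652 had a miR-155/EV value of 2.54 (1.57 and 4.11), with ratios below 1 in both arrays with EV and above 1 in both with miR-155. In the 4 normexp settings this value was 1.08 to 1.53. Its total signal was at 0.304 of the EV level with miR-155, beside 0.771-fold for its IP signal. The first probe of ZNF143 had a miR-155/EV value of 0.717 (0.972 and 0.528), with IP/T ratios of 1.05 (1.02 and 1.07) with EV and 0.751 (0.995 and 0.567) with miR-155. In this probe the arrays with total RNA in Cy3 gave 1.02 and 0.995, and its second probe gave a miR-155/EV value of 0.980. The value of the first probe was 0.841 to 1.01 in the 4 normexp settings.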

How the results depend on the processing

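The 8 summary values were recomputed under 20 alternatives, of which 2 (normexp after replacing high local backgrounds) were added once the data had been seen. Of 132 recomputed values 75 stayed within 1.5 times the count, or within the spread of the labellings for a median, and 57 moved. The cause of each was not tested, other than that the array without a filter holds more probes and that a ratio threshold of 1.5 or 3 lets through more or fewer of them. The deposited log2 values, the mean of signals in place of log2 signals, 1 value per gene, hyphenated symbols (none in the table) and leaving out outlier spots moved no value. The medians of miR-155/EV and of total RNA, both near 0, changed sign in some settings.

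With IP/T ratios of 2 or more, 77 ZNF probes with EV became 8 after normexp and quantile normalization, 5 after normexp, loess and Aquantile, and 42 and 38 in these settings with the high local backgrounds replaced, and 74 with miR-155 became 8, 16, 42 and 47. With EV, the loess setting without and with backgrounds replaced had 1.95% and 14.8% of ZNF probes, beside 2.01% and 6.93% of all probes. With miR-155 the shares were 6.23% and 18.3%, beside 4.73% and 9.13%. Without a filter the counts were 138 (24.3%) and 124 (21.9%) of 567 ZNF probes, beside 8.38% and 7.33% of all probes. With a threshold of 3 they were 45 (17.5%) and 47 (18.3%), beside 6.95% and 7.32%. The ZNF share was above that of all probes in 17 of 18 settings with EV and 17 of 18 with miR-155. It was 2.98 times that share at the most. The exceptions were 0.966 times (normexp, loess and Aquantile) with EV and 0.955 times (normexp and quantile) with miR-155. The 18 settings include the main one and several that hardly change its values, so their tally is no measure of robustness. Normexp and quantile normalization with EV is counted as above, at 3.11% of ZNF probes beside 3.02% of all probes. Labellings taken singly gave 78 and 78 with EV and 72 to 83 with miR-155.

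The median log2 IP/T of ZNF probes, 0.39 with EV and 0.43 with miR-155, was 0.080 and 0.073 after normexp and quantile normalization, 0.022 and 0.13 after normexp, loess and Aquantile, 0.20 and 0.21 or 0.19 and 0.29 in the same settings with backgrounds replaced, 0.78 and 0.65 with median centring and 0.16 and 0.20 without a filter. Single labellings ranged from 0.32 to 0.51 with EV and from 0.32 to 0.50 with miR-155.

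The main count past both thresholds was 1 (0.389%), beside 0.436% of all probes. After normexp and quantile normalization it was 0, beside 0.0761%, and after normexp, loess and Aquantile 2 (0.778%), beside 0.803%. In the settings with backgrounds replaced it was 0, beside 0.201% and 0.353%. A remade filter (at least 4 channels detected and labellings within 2-fold) gave 2 (0.727%), beside 0.438%. Without a filter it was 7 (1.23%), beside 1.06%. At a threshold of 1.5 it was 6 (2.33%), beside 1.80%, and at 3 it was 0, beside 0.0969%. When met in each dye orientation it was 0, beside 0.291%. Single labellings gave 0 and 2 (0.778%), beside 0.581% and 0.630%. The mirror-image count was 1 (0.389%), beside 0.125% of all probes. It was 0 in all 4 normexp settings, with detection in 8 channels, at a threshold of 3 and when met in each orientation. In these settings at most 0.0208% of all probes did so. Without a filter it was 19 (3.35%), beside 1.88%, and at 1.5 it was 6 (2.33%), beside 1.30%. Single labellings gave 0 and 4 (1.56%), beside 0.125% and 0.713%.

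The median log2 miR-155/EV of ZNF probes, -0.02, was 0.011 after normexp and quantile normalization and without a filter, 0.11 after normexp, loess and Aquantile, 0.026 and 0.11 with backgrounds replaced and -0.14 with median centring, and single labellings gave -0.042 to 0.0083. The median log2 change of total RNA, 0.03, was -0.018, -0.067, -0.054 and -0.089 in the 4 normexp settings, 0.49 with median centring, where all probes moved alike (0.47), 0.0078 with detection in 8 channels and 0.0053 to 0.042 in single labellings. No paired analysis was possible because each condition is 1 RNA sample, the labels number no replicates and no test was run. Signal over background limits what can be said of ZNF probes not detected in every channel.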
